A study of Mus musculus with 36 samples.

Results

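Antigen presentation and interferon response genes were examined as a set of 37 mouse genes, chosen by symbol from the 53379 genes of the count tables. The rule lists gene symbols and sets no threshold on a measured value. The set held 3 chains of major histocompatibility complex (MHC) class I, 6 genes that make, carry or load class I peptides, 2 MHC transactivators, 6 class II chains and loading factors, 4 interferon signalling transcription factors, 12 interferon-stimulated effectors, 2 sensors of viral RNA and 2 interferon-inducible chemokines. All 37 passed the filter on low counts in each of the 9 comparisons below.

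RNA was sequenced from formalin-fixed, paraffin-embedded tissue. Sglt2-Cre; ASPSCR1-TFE3 LSL/+ mice carry the gene fusion of a subset of translocation renal cell carcinomas, kept silent until Cre removes a stop cassette. Tissue of 6 such mice gave kidney tumors (11 libraries of 6 mice), retro-orbital tumors (4 libraries of 4 mice), brain tumors (3 libraries of 3 mice) and non-transformed kidneys (4 libraries of 4 mice). Normal kidneys came from 3 mice with Sglt2-Cre alone (6 libraries). Dysmorphic fetal kidneys came from 5 Pax8-Cre; ASPSCR1-TFE3 LSL/+ fetuses, and normal embryonic kidneys from 3 fetuses whose genotype is labelled Pax8-Cre, although the series design also allows for the fusion allele without Cre among them. The Sglt2 promoter acts in the proximal tubule and the Pax8 promoter in the developing nephron and collecting duct. Which cells expressed the fusion was not measured here. The labels give neither the age of the adult mice nor the strain, and they do not say how the retro-orbital and brain tumors relate to the kidney tumors of the same mouse.

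MHC class I molecules show peptides from inside the cell to CD8+ T cells. Each consists of a heavy chain, such as H2-K1 or H2-D1, and beta-2 microglobulin, and it is loaded with peptides that the proteasome cuts and the TAP transporter carries into the endoplasmic reticulum. Class II molecules show peptides taken up from outside to CD4+ T cells, mostly on dendritic cells, macrophages and B cells. The transactivator NLRC5 drives class I genes and CIITA drives class II genes. Type I interferon signals through factors that include STAT2 and IRF9, interferon gamma through factors that include IRF1, and both raise the transcription of the effector genes listed here, whose products block viral replication or feed back on the signal. Kidney epithelium normally carries class I, while much of the class II in a kidney belongs to its resident immune cells.

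Libraries held between 80205573 and 121415057 counts, and those of the same mouse and tissue were summed, so that the 28 combinations of animal and tissue are the samples compared. Levels are given as CPM, the counts relative to a TMM-scaled library size. Marker genes of other cell types differed between the groups. The summed level of 4 proximal tubule genes was 10418–10858 CPM in control kidneys, 618–7333 in kidney tumors, 80.9–978 in retro-orbital tumors and 282–726 in brain tumors. Brain genes summed to 32.4, 928 and 242 CPM in the brain tumors of mice 1, 2 and 4. Skeletal muscle genes reached 486–696 CPM in control fetal kidneys and 1381–3029 in dysmorphic fetal kidneys. All 3 control mice were female by their Y-linked counts, while mice 1 and 5 of the fusion mice were male. These are bulk samples, in which fewer cells of a type and less RNA per cell cannot be told apart.

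The 37 genes did not follow a single pattern across the 7 groups. Mean levels were highest in retro-orbital tumors for 15 genes, in control kidneys for 10, in brain tumors for 7, in kidney tumors for 4 and in control fetal kidneys for 1. Mean levels were lowest in a fetal group for 33 genes, 26 of them in dysmorphic and 7 in control fetal kidneys. Compared per kilobase of gene model, B2m was the most abundant member in control kidneys at 390 CPM per kb, followed by H2-D1 at 132, H2-K1 at 88.4 and the class II invariant chain gene Cd74 at 57.3. Ciita stood at 0.987 CPM per kb there. In some groups 1 animal was the highest for most genes. In brain tumors mouse 4 had the highest level of 34 of the 37 genes, in non-transformed kidneys mouse 4 was also the highest for 34, and in control kidneys mouse 3 was for 31. In kidney tumors mouse 1 was the highest for 24, and in control fetal kidneys fetus 3 for 22. In retro-orbital tumors the highest levels were spread over mice 2, 3, 5 and 6, with 13, 8, 7 and 9 genes, and in dysmorphic kidneys fetus 5 was the highest for 17 and fetus 1 for 14.

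**Figure D1:**
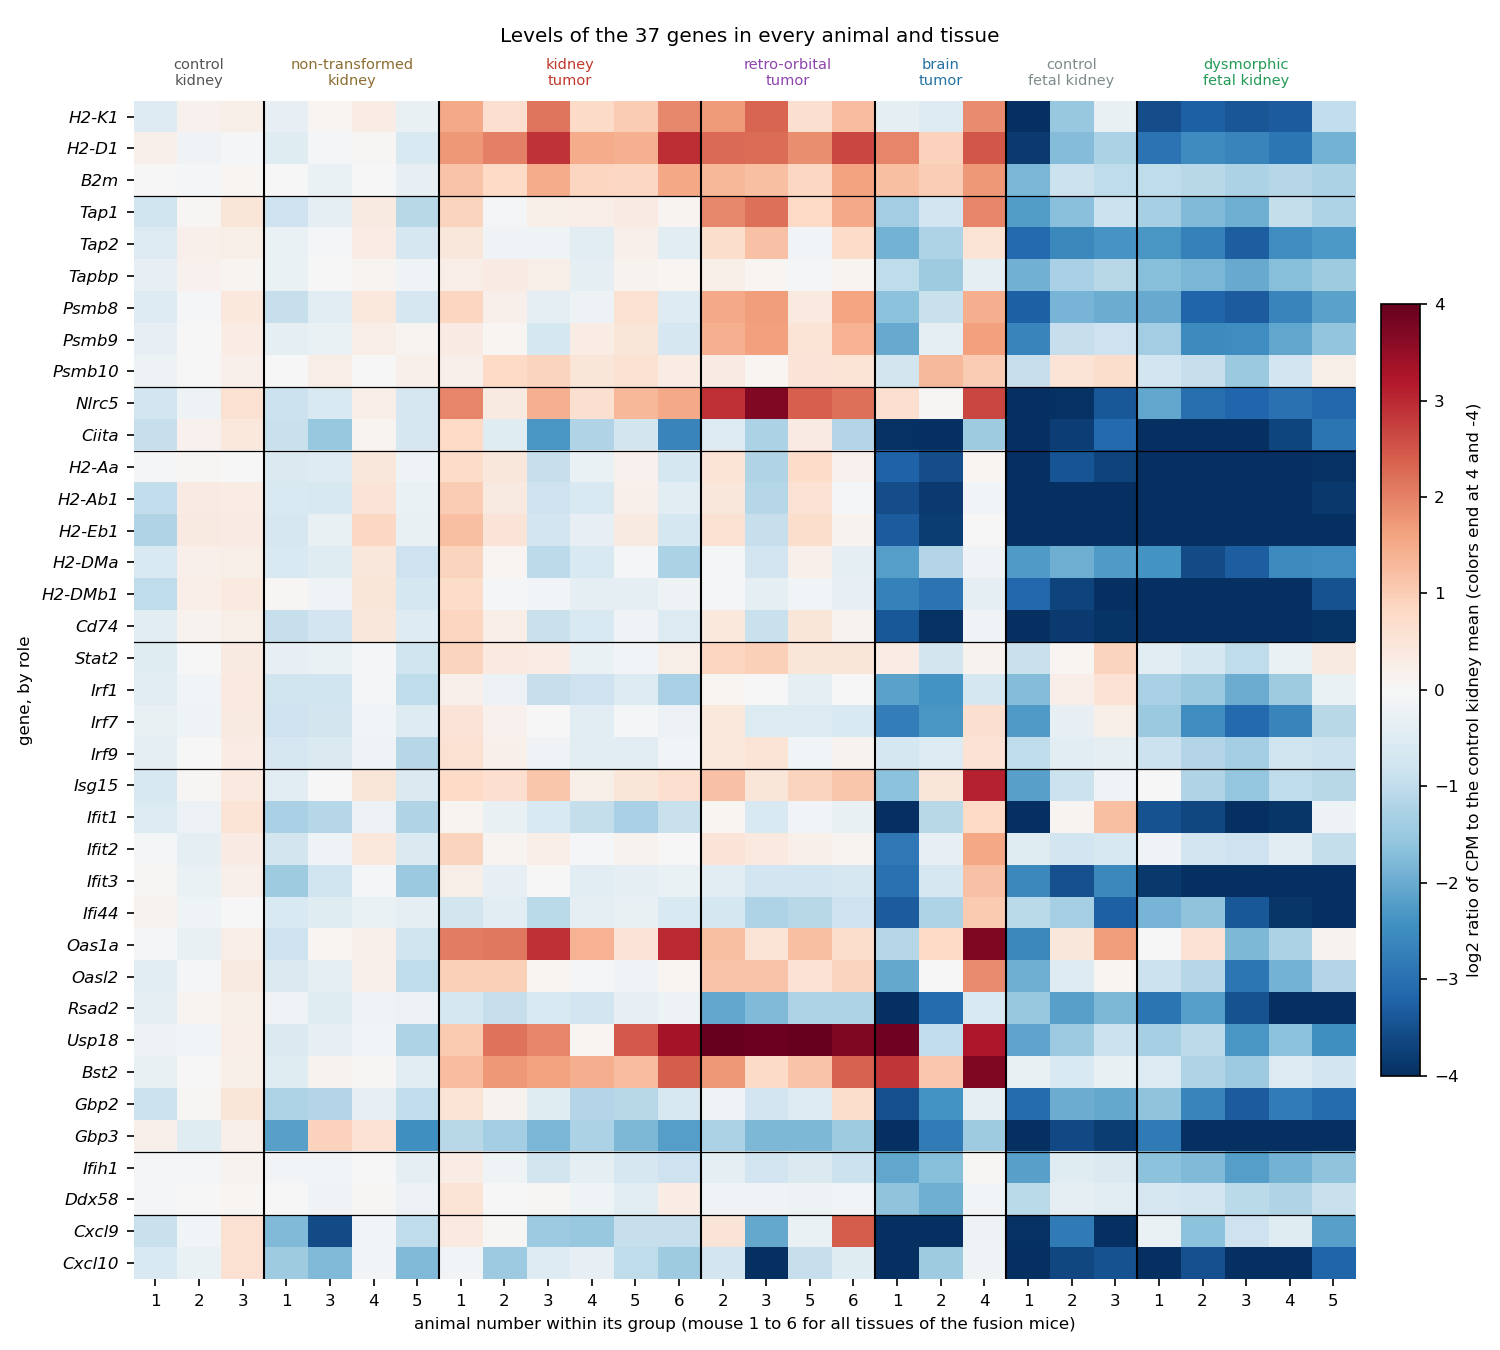
Level of each of the 37 genes in each animal, drawn as the log2 ratio of its CPM to the mean CPM of the 3 control kidneys, with genes in rows by role, animals in columns by group, and colors that end at 4 in either direction. Class II genes are low in both fetal groups and in the brain tumors of mice 1 and 2, and the class I chains H2-D1 and B2m are high in the tumors, while H2-K1 is at 202 and 182 CPM in the brain tumors of mice 1 and 2, within the range of the control kidneys.

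Promoter sequences of genes that the comparisons below turn on are printed here because these genes share regulators by their known biology. Each line is the 250 bases before the annotated start in RefSeq, build GRCm38.p6, 5′ to 3′ on the strand of the gene. Capitals mark matches on either strand to the IRF core GAAANNGAA, which interferon regulatory factors recognise, to the gamma-activated site (GAS) motif TTCNNNGAA, to the Y box CCAAT of MHC promoters, or to the E-box CACGTG that TFE3 can bind.
H2-K1, class I heavy chain, chr17:34000348-34000597, minus strand: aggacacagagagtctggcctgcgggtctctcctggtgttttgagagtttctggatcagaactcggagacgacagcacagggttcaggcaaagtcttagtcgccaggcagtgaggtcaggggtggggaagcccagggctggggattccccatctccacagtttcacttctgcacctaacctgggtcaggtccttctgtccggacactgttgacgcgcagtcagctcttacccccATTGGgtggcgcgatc
H2-D1, class I heavy chain, chr17:35262844-35263093, plus strand: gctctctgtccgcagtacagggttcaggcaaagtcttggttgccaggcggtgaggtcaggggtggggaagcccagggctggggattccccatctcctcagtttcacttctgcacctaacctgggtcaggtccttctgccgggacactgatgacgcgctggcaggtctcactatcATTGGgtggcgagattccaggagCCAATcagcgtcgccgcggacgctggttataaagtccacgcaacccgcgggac
B2m, class I light chain, chr2:122147437-122147686, plus strand: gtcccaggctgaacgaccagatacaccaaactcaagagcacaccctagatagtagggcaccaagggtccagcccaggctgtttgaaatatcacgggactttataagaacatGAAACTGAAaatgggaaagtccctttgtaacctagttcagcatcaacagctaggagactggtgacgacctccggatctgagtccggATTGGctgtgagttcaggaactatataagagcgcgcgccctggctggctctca
Tap1, peptide transporter, chr17:34187306-34187555, plus strand: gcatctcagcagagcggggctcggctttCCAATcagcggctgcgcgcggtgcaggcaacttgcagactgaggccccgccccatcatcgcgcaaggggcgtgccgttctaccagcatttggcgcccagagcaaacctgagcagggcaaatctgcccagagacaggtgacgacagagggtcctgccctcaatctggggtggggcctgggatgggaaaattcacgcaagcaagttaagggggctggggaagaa
Oas1a, oligoadenylate synthetase, chr5:120907526-120907775, minus strand: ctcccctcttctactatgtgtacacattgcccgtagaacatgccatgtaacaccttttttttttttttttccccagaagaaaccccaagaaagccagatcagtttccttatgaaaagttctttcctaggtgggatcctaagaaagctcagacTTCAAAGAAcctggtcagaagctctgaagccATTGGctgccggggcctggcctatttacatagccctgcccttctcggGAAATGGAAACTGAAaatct
Bst2, tetherin, chr8:71537473-71537722, minus strand: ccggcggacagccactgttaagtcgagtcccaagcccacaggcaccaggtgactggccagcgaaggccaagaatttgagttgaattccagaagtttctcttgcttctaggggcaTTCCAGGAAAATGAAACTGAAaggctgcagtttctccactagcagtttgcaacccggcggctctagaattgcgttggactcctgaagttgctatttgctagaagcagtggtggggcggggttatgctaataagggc
Gbp3, guanylate-binding GTPase, chr3:142559794-142560043, plus strand: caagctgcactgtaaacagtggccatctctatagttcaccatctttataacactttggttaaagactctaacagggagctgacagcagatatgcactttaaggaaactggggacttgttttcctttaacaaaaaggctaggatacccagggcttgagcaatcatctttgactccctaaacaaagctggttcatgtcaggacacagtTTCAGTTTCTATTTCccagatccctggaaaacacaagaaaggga

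RefSeq windows were at hand for 31 of the 37 genes. A gene was counted for a motif when any of its windows held it, and 6 genes had more than 1 window, of which the first listed is printed. The IRF core was found for 13 of the 31 genes (41.9%), against 8.18% of 27025 genes. It was found for 8 of 11 effectors and for both chemokines. The printed windows of Oas1a, Bst2 and Gbp3 each held 2 cores that overlap, and in Bst2 the GAS match overlaps a core as well. GAS matches were found for 5 genes (16.1%, against 8.13% of all genes). The Y box was found for 17 (54.8%, against 37.5%), among them all 3 class I and all 4 class II genes with a window. The E-box was found for 1, Psmb10 (3.23%, against 6.86%). A match describes these letters only, and whether a factor binds there was not measured.

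Kidney tumors were compared with control kidneys to see how the genes differed between fusion-driven tumors and kidneys with Cre alone. Class I chains and 3 interferon-stimulated effectors were higher in the tumors and Gbp3 was lower, with no called difference among the class II genes. In all, 6 members were called higher and 1 lower at an adjusted p under 0.05. Of the 23578 genes tested, 19% were called and 12.5% were called higher, so the share of members called was close to that of all genes. The median log2 fold change of the members was 0.03, against 0.05 over all genes tested. Groups did not overlap for 7 members, 5 of them above and 2 below the controls, against 29.8% of all genes.

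All 3 class I chains rose. H2-D1 stood between 311 and 391 CPM in the 3 control mice (341 ± 43.2, SD), and in kidney tumors its lowest, median and highest levels were 922, 1265 and 2645 CPM. Every tumor was above every control, by 4.63-fold (log2 fold change 2.21 ± 0.42 SE, edgeR adjusted p = 0.00899). The call held in 14 of 16 alternative fits and was lost without control mouse 2 or 3. H2-K1 was at 180, 292 and 307 CPM in controls and at 415, 636 and 1154 CPM (lowest, median, highest) in tumors. These groups were apart as well, by 2.70-fold (1.43 ± 0.39 SE, edgeR adjusted p = 0.0326), though the call was lost in 5 of 16 alternative fits, those with all 7 groups together and those without control mouse 1, 2 or 3 or without mouse 6. B2m encodes the light chain that both heavy chains need to reach the surface. It was at 329, 326 and 350 CPM in controls and at 584, 676 and 985 CPM (lowest, median, highest) in tumors, with no overlap and a fold of 2.18 (1.13 ± 0.21 SE, edgeR adjusted p = 0.00868). Per kilobase, H2-D1 was below B2m in both groups, at 621 against 862 CPM per kb in tumors. H2-K1 and H2-D1 share much sequence with each other and with other class I genes, and they vary between strains, so how reads were split among them is uncertain.

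Of the 12 effectors, 3 rose, 1 fell and 8 did not pass the test. Bst2, or tetherin, holds budding virions at the cell surface. It was at 5.12, 6.36 and 7.37 CPM in controls and at 14.8, 18.2 and 33.9 CPM (lowest, median, highest) in tumors, apart by 3.16-fold (log2 fold change 1.66 ± 0.31 SE, edgeR adjusted p = 0.00826). Oas1a makes the 2′-5′ oligoadenylates that activate RNase L. It was at 3.69, 3.11 and 4.61 CPM in controls and at 5.41, 16.0 and 30.2 CPM in tumors, again with no overlap (2.20 ± 0.54 SE, edgeR adjusted p = 0.0238), though reads may be shared with its close Oas1 paralogs. Usp18 removes ISG15 from proteins and dampens type I interferon signalling. Its levels overlapped, at 3.82, 4.10 and 5.24 CPM in controls against 4.65, 18.5 and 44.1 CPM in tumors, and only mouse 4 lay within the range of the controls (2.16 ± 0.64 SE, edgeR adjusted p = 0.0443). Gbp3, a GTPase that acts on intracellular pathogens, was the member that fell. It was at 66.5, 41.7 and 66.7 CPM in controls and at 12.7, 19.8 and 27.3 CPM in tumors, 2.94-fold lower with no overlap (-1.56 ± 0.25 SE, edgeR adjusted p = 0.00469). Of 16 alternative fits, Bst2 was called in 16, Gbp3 in 15, Oas1a in 12 and Usp18 in 8. The remaining effectors included Isg15, the ubiquitin-like modifier itself, at a log2 fold change of 0.67 (edgeR adjusted p = 0.139), Rsad2, or viperin, at -0.59 (0.0794), and Ifi44 at -0.59 (0.0583), whose groups did not overlap.

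The other roles held no call in this comparison. The 6 processing genes had a median log2 fold change of 0.14 and ranged from -0.07 to 0.55, the top value being that of the immunoproteasome subunit Psmb10. Nlrc5 stood at 17.8, 26.5 and 46.4 CPM in controls and at 38.4, 78.0 and 117 CPM (lowest, median, highest) in tumors, overlapping through the tumor of mouse 2 (1.28 ± 0.42 SE, edgeR adjusted p = 0.0591). The 6 class II genes had a median of -0.01 and lay between -0.16 and 0.21. Their antigen-binding chain H2-Aa, for example, was at 60.6, 66.5 and 65.6 CPM in controls and at 34.1, 62.4 and 107 CPM in tumors, which spread to both sides of the controls. Macrophage markers also differed between these groups, with 4 of 7 higher and a summed level of 152–650 CPM in tumors against 150–175 in controls. So did neutrophil markers, with 4 of 4 higher and 7.89–23.4 against 0.886–2.01 CPM. Macrophage sums were highest in the tumors of mice 1 and 2, at 650 and 551 CPM. H2-D1 was highest in those of mice 3 and 6, at 2542 and 2645 CPM. Pan-leukocyte markers summed to 115–412 CPM in tumors and 104–153 in controls. The part of these cells in the class I and effector levels was not tested. Leaving out control mouse 1, 2 or 3 lowered the number of members called from 7 to 4, 3 and 3, and B2m and Bst2 were called under every alternative run.

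**Figure D2:**
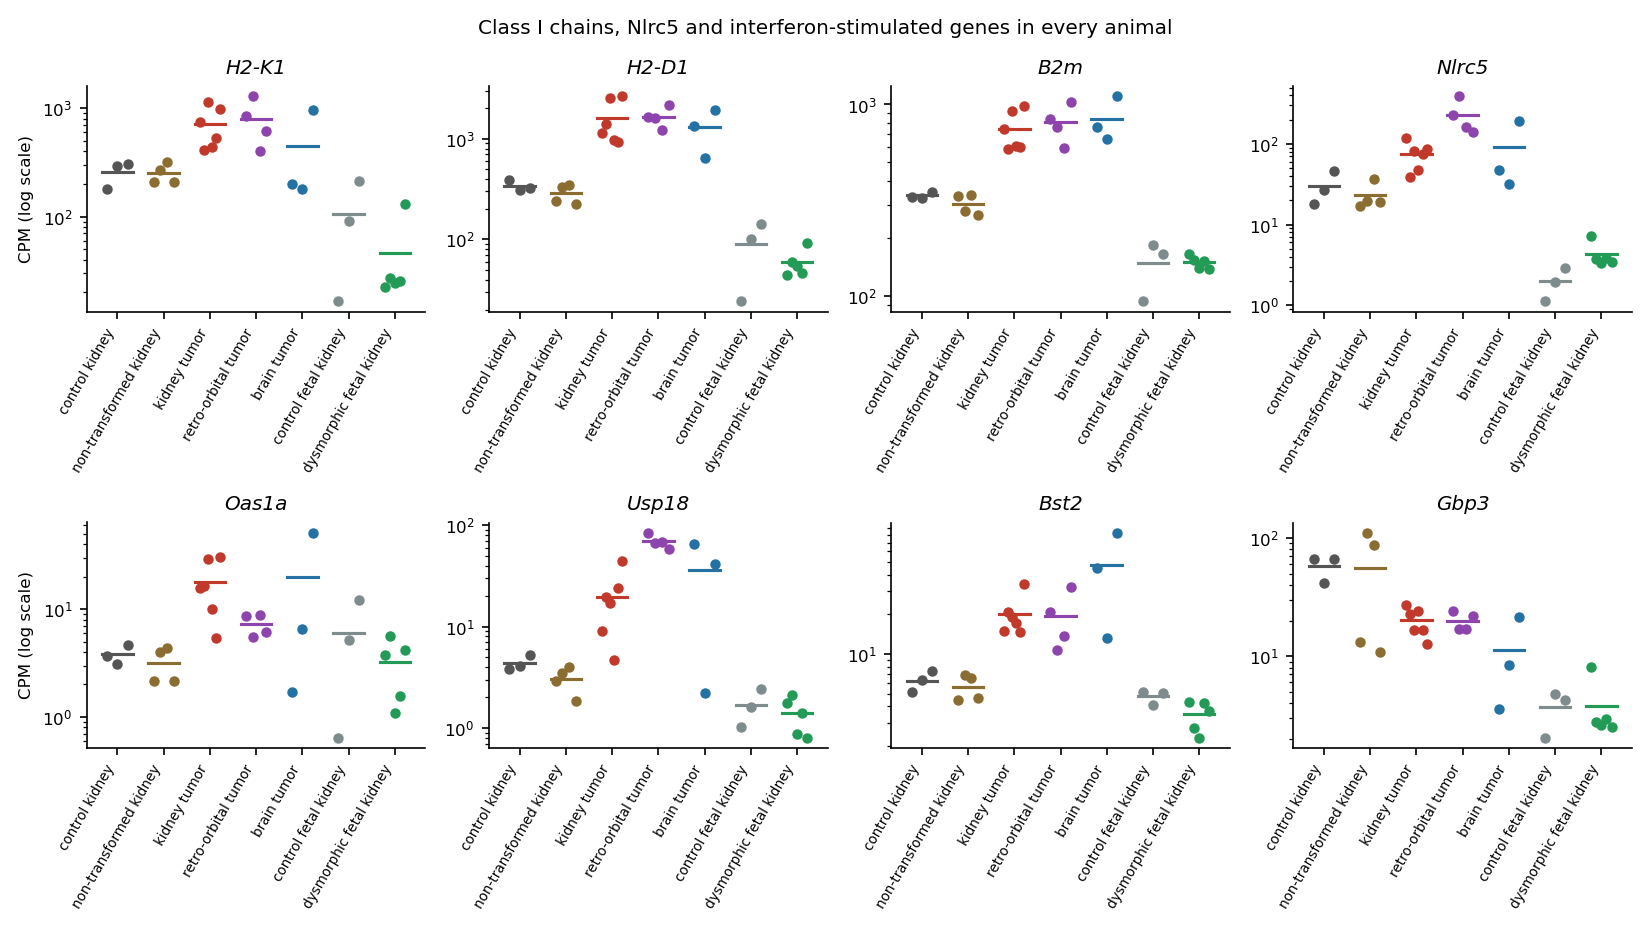
Levels of the 8 genes called between kidney tumors and either kidney group, in CPM on a log axis, where each point is an animal, the line is the group mean and the 7 groups are along the horizontal axis. H2-D1, B2m and Bst2 in kidney tumors lie above all control and non-transformed kidneys, and Gbp3 in non-transformed kidneys splits into levels near 11–13 and near 87–111 CPM.

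Kidney tumors were next compared with non-transformed kidneys of the same line of mice, which carry the fusion allele and Cre as the tumors do. The kidney tumor samples are the same as above, so these results are not independent of the comparison with control kidneys. Here 7 members were called higher and none lower, while 17.1% of the 21930 genes tested were called and 12.1% called higher. The members' median log2 fold change was 0.39, against -0.02 over all genes, and 31 of 37 were above 0. Groups did not overlap for 7 members, all above, against 17.9% of all genes.

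H2-D1 was at 241, 331, 350 and 226 CPM in the non-transformed kidneys of mice 1, 3, 4 and 5, below all tumors (log2 fold change 2.41 ± 0.37 SE, edgeR adjusted p = 0.00236). H2-K1 differed by 1.43 ± 0.32 (edgeR adjusted p = 0.0147) and B2m by 1.23 ± 0.18 (0.00211). Nlrc5, the class I transactivator, was at 16.8, 19.7, 36.4 and 19.0 CPM in non-transformed kidneys, just under the lowest tumor at 38.4 CPM (1.63 ± 0.35 SE, edgeR adjusted p = 0.0124). Of the effectors, Bst2 was called at 1.77 ± 0.28 (edgeR adjusted p = 0.00272), and so were Oas1a at 2.41 ± 0.50 (0.0107) and Usp18 at 2.63 ± 0.58 (0.0143). For these 7 genes every kidney tumor was above every non-transformed kidney. Gbp3 had no call. It was at 13.1 and 10.7 CPM in mice 1 and 5, which are male, and at 111 and 87.5 CPM in mice 3 and 4, which are female (-1.54 ± 0.61 SE, edgeR adjusted p = 0.105).

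With the mouse as a block, which keeps only the 4 mice with both tissues and drops the tumors of mice 2 and 6, 3 members stayed called, H2-D1 at 2.11, B2m at 1.18 and Bst2 at 1.51 on the log2 scale, against 4.12% of all genes. H2-K1, Nlrc5, Oas1a and Usp18 kept their direction and lost the call, at edgeR adjusted p-values of 0.0788, 0.0872, 0.0615 and 0.146. Among female mice alone, an alternative added after the data were seen, H2-D1 (2.40) and Bst2 (1.69) were called higher and Gbp3 (-2.44) lower, against 5.19% of all genes called. Without mouse 1 or without mouse 3 the number called was 3 each. Macrophage markers were higher for 5 of 7, with a sum of 152–650 CPM in tumors and 122–224 in non-transformed kidneys. Neutrophil markers summed to 7.89–23.4 against 2.49–11.2 CPM and nephron progenitor markers to 4.77–358 against 2.46–6.00 CPM. Proximal tubule markers were at 618–7333 against 10023–13122 CPM. The part of these cell types in the levels was not tested.

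**Figure D3:**
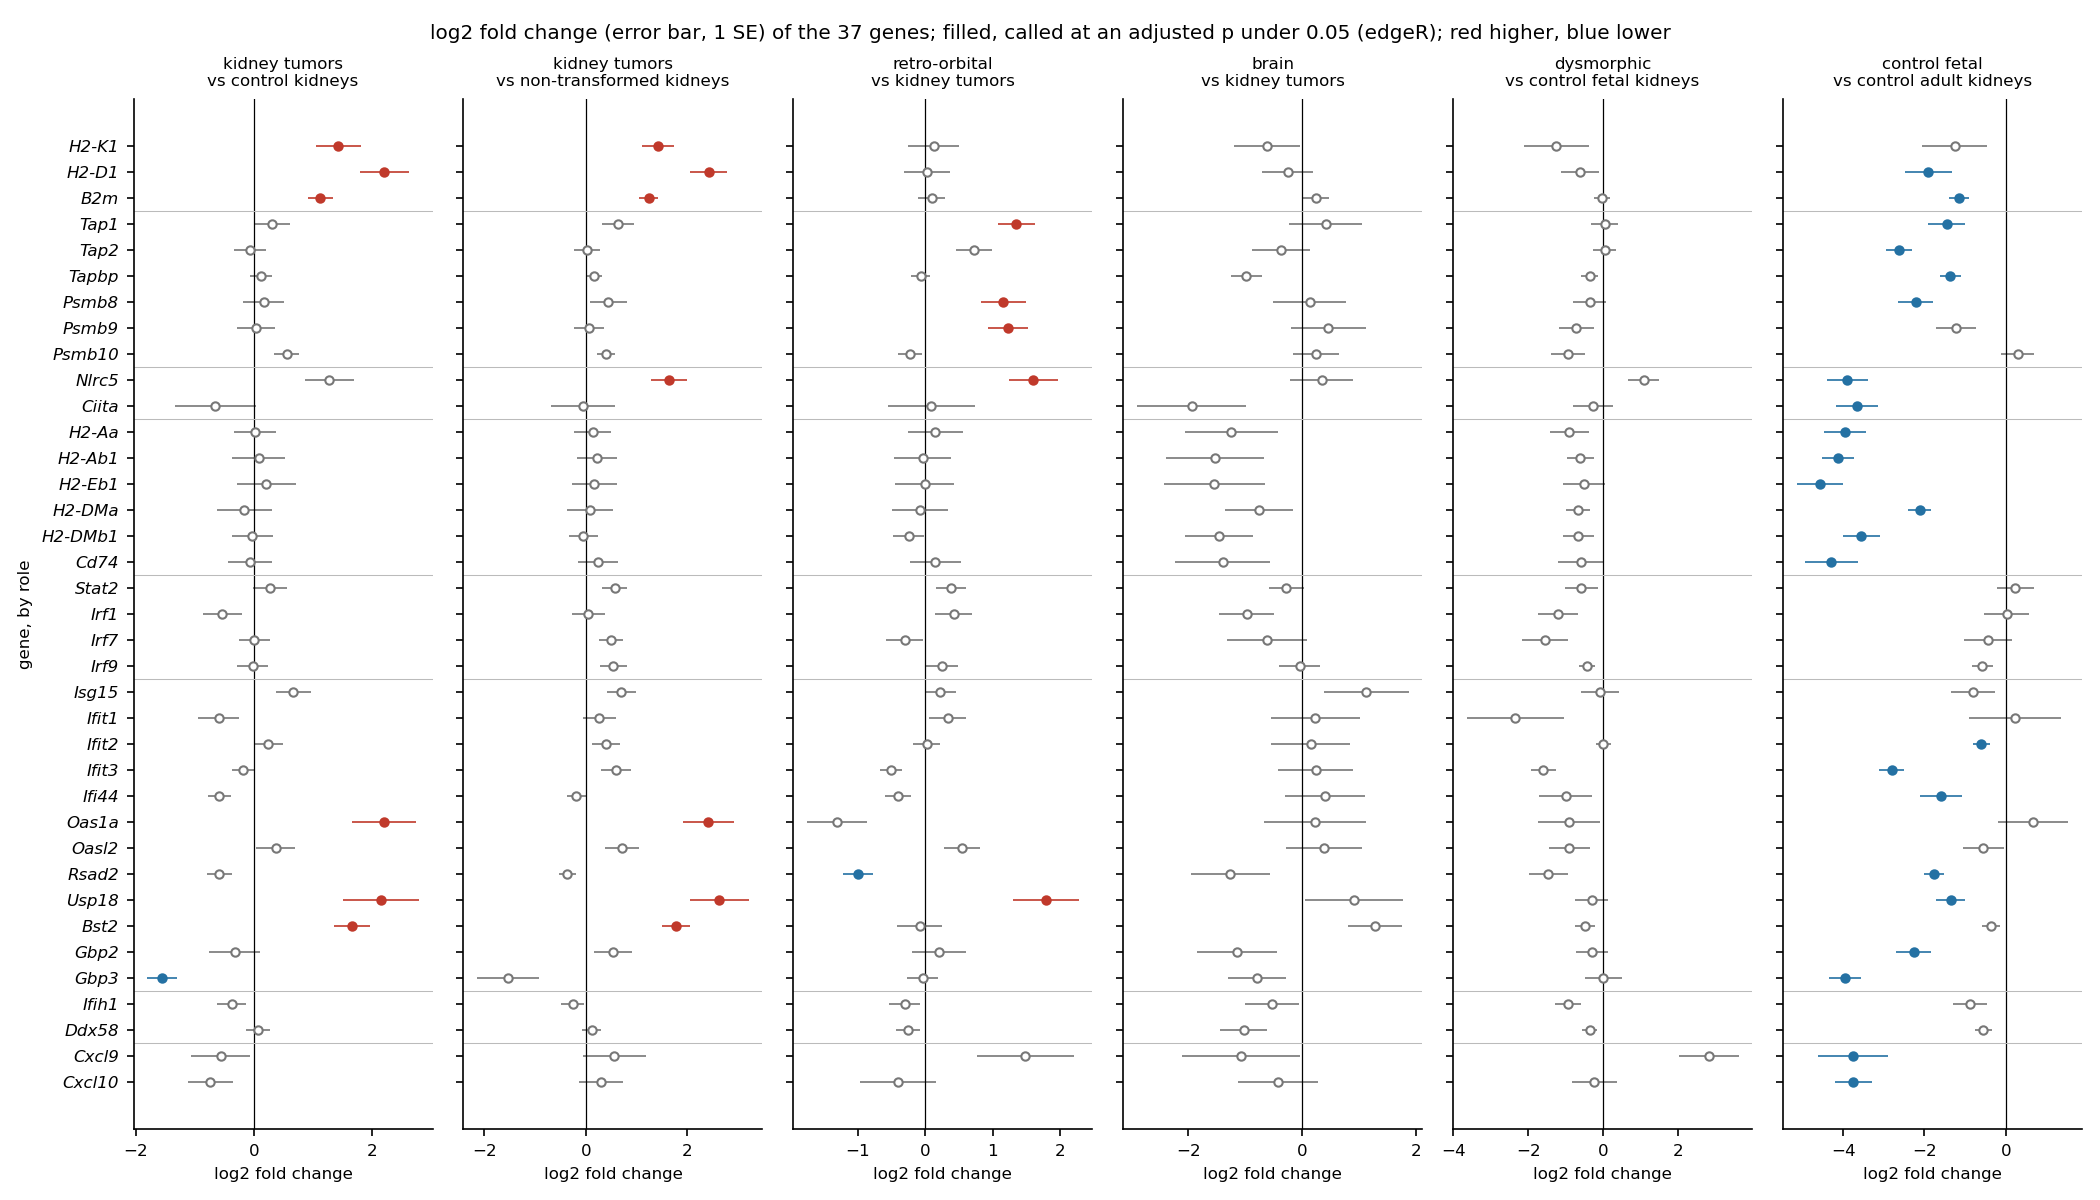
Log2 fold change of each of the 37 genes in 6 comparisons, 1 panel each, where the point is the estimate, the bar is 1 SE to either side, and a filled point marks an adjusted p under 0.05 in edgeR, red for higher and blue for lower. Class I chains stand to the right in both kidney tumor panels, and nearly all class II genes stand far to the left in the panel of control fetal against control adult kidneys.

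Non-transformed kidneys themselves were compared with control kidneys, which asks whether the genes differed in fusion-bearing kidney outside the tumors. No member was called by edgeR, and 5 had an unadjusted p under 0.05. In all, 2 of the 21019 genes tested were called, or 0.00952%. DESeq2 called no member either. The fold changes of 35 of the 37 members were below 0, with a median of -0.25 against 0.03 over all genes. The lowest were those of the interferon-inducible chemokines, which draw in T cells through CXCR3, with Cxcl9 at -1.13 (edgeR adjusted p = 0.537) and Cxcl10 at -1.06 (0.447). Ifit1 and Gbp2 followed at -0.89 and -0.88. Ifit3 was at 36.7, 29.5 and 41.3 CPM in control mice 1, 2 and 3 and at 13.2, 20.5, 34.5 and 12.7 CPM in mice 1, 3, 4 and 5, where mouse 4 alone reached the range of the controls (-0.81 on the log2 scale, edgeR adjusted p = 0.414). Gbp3 was at -0.06 ± 0.77, with the male and female levels given above.

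Retro-orbital tumors were compared with kidney tumors to see whether the genes differed with the site. Of the class I pathway, Tap1, Psmb8, Psmb9 and Nlrc5 were higher in the retro-orbital tumors, and the other 3 processing genes and the class I chains had no call. In all, 5 members were called higher and 1 lower, and 9 had an unadjusted p under 0.05, while 17.7% of the 22136 genes tested were called and 8.26% called higher. The members' median log2 fold change was 0.09, against -0.09. Groups did not overlap for 5 members, 3 above and 2 below, against 16.3% of all genes.

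Tap1 encodes a subunit of the transporter that brings peptides to class I. It was at 37.7, 46.2, 17.3 and 28.6 CPM in the retro-orbital tumors of mice 2, 3, 5 and 6, and at 9.36, 11.8 and 18.5 CPM (lowest, median, highest) in kidney tumors. The retro-orbital tumor of mouse 5 lay within the kidney tumor range and the other 3 above it, for a fold of 2.55 (log2 fold change 1.35 ± 0.27 SE, edgeR adjusted p = 0.00892). Psmb8 and Psmb9 replace catalytic subunits of the standard proteasome when cells see interferon. Psmb8 was at 41.8, 46.3, 18.8 and 42.8 CPM, against 10.1, 14.6 and 26.2 CPM in kidney tumors, with mouse 5 again inside the range (1.16 ± 0.33 SE, edgeR adjusted p = 0.038). Psmb9 was at 13.1, 15.2, 7.14 and 12.6 CPM, all above the kidney tumor levels of 2.97, 5.55 and 6.82 CPM (1.23 ± 0.30 SE, edgeR adjusted p = 0.0203). Psmb9 and Tap1 lie on opposite strands with gene models that overlap at their starts in GENCODE M21, and the labels do not say whether counting used the strand, so reads near the shared start may be split. Tap2, the partner of Tap1, was at 0.73 ± 0.27 (edgeR adjusted p = 0.0854) and not called.

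Nlrc5 was at 230, 390, 160 and 139 CPM in retro-orbital tumors and at 38.4, 78.0 and 117 CPM (lowest, median, highest) in kidney tumors, apart by 3.04-fold (1.60 ± 0.36 SE, edgeR adjusted p = 0.0142). Usp18 was at 84.6, 66.8, 69.0 and 58.4 CPM, above every kidney tumor, whose levels were 4.65, 18.5 and 44.1 CPM (1.79 ± 0.49 SE, edgeR adjusted p = 0.0318). Rsad2 went the other way. This radical SAM enzyme, which makes a chain-terminating nucleotide, was at 6.16, 7.64, 10.9 and 10.9 CPM, below every kidney tumor at 13.6, 16.3 and 22.6 CPM (-0.99 ± 0.23 SE, edgeR adjusted p = 0.0147). Ifit3 was also below without overlap but not called (-0.51, edgeR adjusted p = 0.0565), and Oas1a had a fold change of -1.31 ± 0.45 (0.0701). Effectors therefore stood on both sides. The class I chains lay between 0.03 and 0.13, and the class II genes had a median of -0.02. T cell chemokine Cxcl9 was at 7.56, 1.28, 4.37 and 28.4 CPM in retro-orbital tumors, a range that took in the kidney tumors at 1.86, 2.78 and 6.92 CPM.

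**Figure D4:**
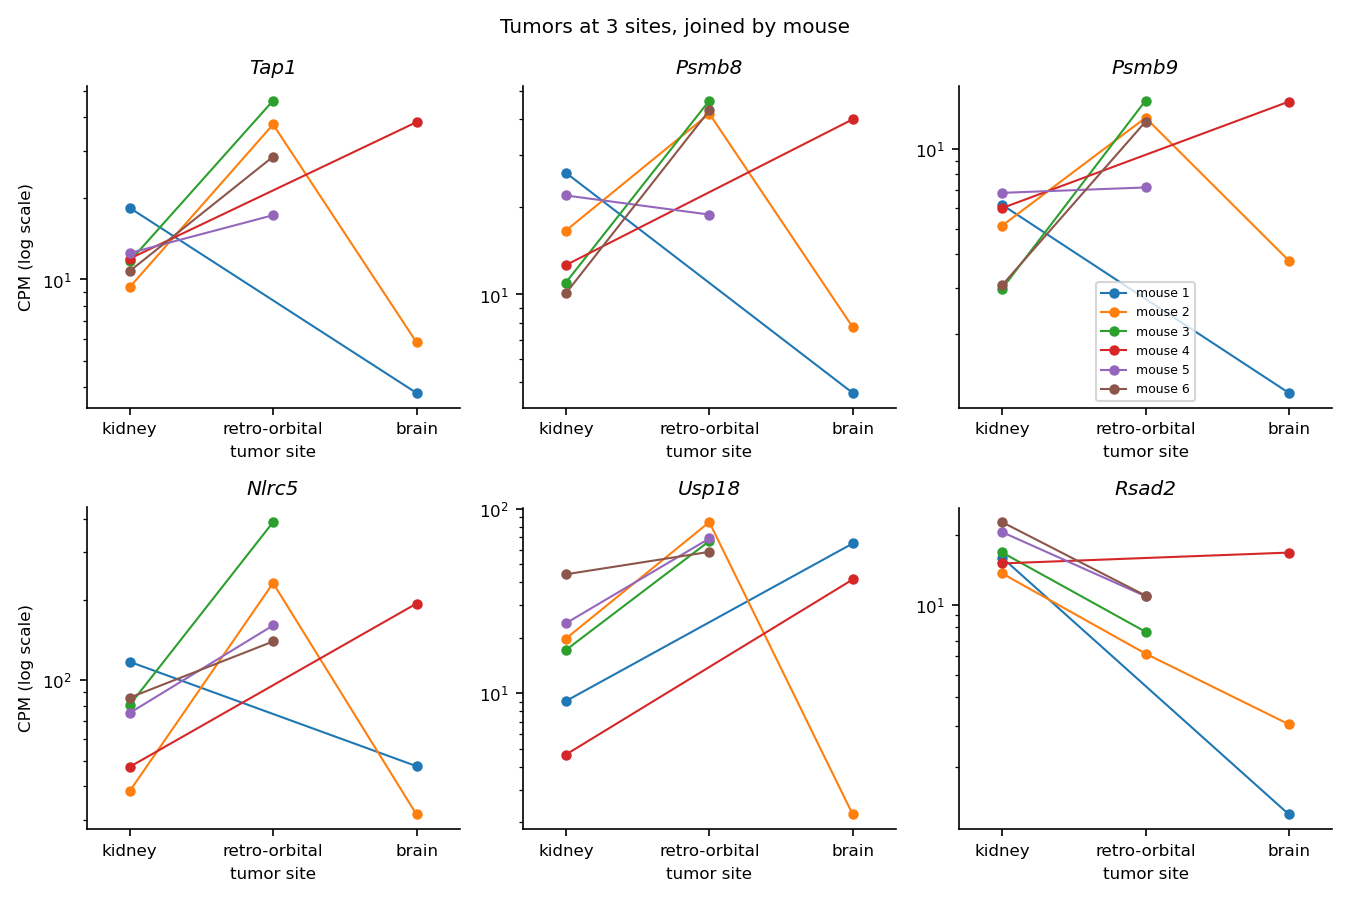
Levels of Tap1, Psmb8, Psmb9, Nlrc5, Usp18 and Rsad2 in tumors by site, in CPM on a log axis, where each point is a tumor sample of a mouse and a line joins the tumors of the same mouse. For Nlrc5, Usp18 and Psmb9 the 4 retro-orbital tumors lie above the 6 kidney tumors, and for Rsad2 below them.

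Per kilobase, the level of Psmb8 relative to the standard subunit it replaces, Psmb5, had a median of 0.817 in retro-orbital tumors (0.362–1.11) and 0.153 in kidney tumors (0.0793–0.504). The ratio in control kidneys was 0.191–0.355. For Psmb9 over Psmb6 the range was 0.0735–0.145 in retro-orbital tumors and 0.0188–0.0533 in kidney tumors, with no overlap. For Psmb10 over Psmb7 the ranges overlapped, at 0.139–0.175 and 0.106–0.172. Of the 3 standard subunits, 1, Psmb5, was itself called lower in retro-orbital tumors.

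**Figure D5:**
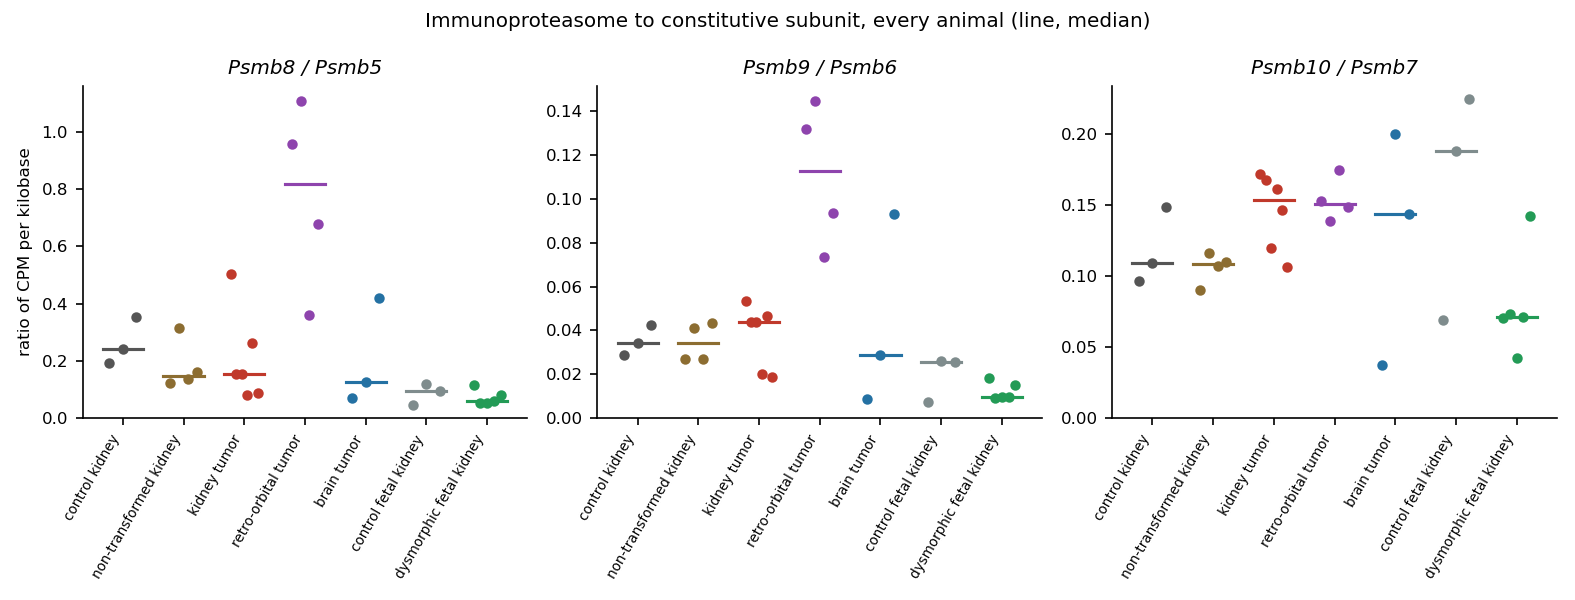
Ratio of CPM per kb of each immunoproteasome subunit to the standard subunit it replaces (Psmb8 to Psmb5, Psmb9 to Psmb6, Psmb10 to Psmb7) by group, where each point is an animal and the line is the group median. Psmb9 to Psmb6 in retro-orbital tumors, at 0.0735–0.145, lies above all kidney tumors, and Psmb10 to Psmb7 overlaps between the sites.

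With the mouse as a block, in the 4 mice with both tumors and with the kidney tumors of mice 1 and 4 dropped, Tap1, Nlrc5, Usp18 and Rsad2 stayed called, at edgeR adjusted p-values of 0.0442, 0.0489, 0.0410 and 0.0195, against 13.1% of all genes. Psmb8 and Psmb9 lost the call, at edgeR adjusted p-values of 0.11 and 0.0879. The number called was 1 when mouse 2 was left out and 0 when mouse 3 was. Single calls were also lost without other mice, that of Psmb8 without mouse 4 or 6, that of Psmb9 without mouse 6 and that of Usp18 without mouse 5, and Psmb8 was not called without the kidney tumors of mice 4 and 5, an alternative added after the data were seen. Endothelial markers summed to 733–1063 CPM in retro-orbital and 237–488 CPM in kidney tumors, and 3 of 4 were called higher. Natural killer cell markers stood at 3.25–6.53 against 0.971–3.85 CPM, with 2 of 5 higher, T cell markers at 8.75–18.2 against 3.24–18.4 CPM, with 1 of 6 higher, and neutrophil markers at 12.9–88.3 against 7.89–23.4 CPM, with 2 of 4 higher. The part of these cells in the Tap1, proteasome, Nlrc5 and Usp18 levels was not tested.

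Brain tumors were compared with the other tumors for the same question. No member was called against kidney tumors by edgeR, with 4 at an unadjusted p under 0.05 and 8.74% of the 23391 genes tested called. DESeq2 called 1 member. The members' median log2 fold change was -0.37, against 0.03. Tapbp, or tapasin, which holds class I near TAP while peptides bind, came closest at -0.98 ± 0.27 (edgeR adjusted p = 0.0535). Against retro-orbital tumors no member was called either, with 4 at an unadjusted p under 0.05, a median of -0.85 against 0.04, and 1.73% of the 21037 genes tested called. DESeq2 called 2 there.

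The 3 brain tumors differed widely among themselves. H2-Eb1, a class II beta chain, was at 6.52, 4.73 and 65.9 CPM in mice 1, 2 and 4, and Cd74 at 9.10, 6.25 and 87.2 CPM. Oas1a was at 1.71, 6.59 and 51.2 CPM and Isg15 at 0.541, 2.37 and 14.2 CPM. Mouse 4 was thus far above the other pair in class II and effector genes alike, though not in Usp18, at 64.8, 2.20 and 41.4 CPM. Several immune and vessel marker sums were also highest in mouse 4, with macrophage sums of 118, 179 and 382 CPM, T cell sums of 1.73, 0.932 and 6.58 CPM and endothelial sums of 159, 222 and 1135 CPM. The microglia list, which holds Sall1, a gene that kidney expresses too, summed to 52.9, 46.9 and 16.2 CPM, against 189–212 CPM in control kidneys, and so gives no microglia level here. Plasmacytoid dendritic cell markers were highest in mouse 2, at 0.0201, 4.72 and 0.808 CPM. The part of these cells in the levels of mouse 4 was not tested.

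Within its group the brain tumor of mouse 4 had the highest level of 34 members. The kidney tumor of mouse 4 had the lowest level of 12 members in its own group. Leaving out the highest brain tumor lowers the brain mean of those members in itself. The calls made without mouse 4 are therefore no independent test of a difference between sites. Leaving out mouse 4, with both of its tumors, changed the result. Against kidney tumors 12 members were then called lower, with 6.36% of all genes called. They were H2-K1 (-1.96), Tapbp (-1.41), 5 of the 6 class II genes (-3.86 to -2.85), Irf7 (-2.60), Rsad2 and Gbp2 (-3.01 and -2.63), Ddx58 (-1.86) and Cxcl9 (-4.31). Against retro-orbital tumors, leaving out the brain tumor of mouse 4 gave 14 called lower, with 4.79% of all genes called. They were Tap1, Tap2, Tapbp and Psmb8 (-2.78 to -1.35), Nlrc5 and Ciita (-2.57 and -3.61), 5 of the 6 class II genes (-3.83 to -2.62), Irf1 (-2.22) and the RNA sensors Ifih1 and Ddx58 (-1.27 and -1.64). In both fits H2-DMa, which edits class II peptides together with H2-DMb1, was the class II gene with no call. Brain tumors then number 2, and their spread is judged together with that of the other sites. With the mouse as a block, in the 3 mice with both tumors and the kidney tumors of mice 3, 5 and 6 dropped, no member and 0% of all genes were called against kidney tumors.

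Dysmorphic fetal kidneys were compared with control fetal kidneys to see what the fusion did to these genes when switched on by Pax8-Cre before birth. No member was called by edgeR, 6 had an unadjusted p under 0.05, DESeq2 called 2, and 2.67% of the 22690 genes tested were called. The fold changes of 31 of the 37 members were below 0, with a median of -0.57 against -0.04. Cxcl9 was at 0.345, 0.746 and 0.0654 CPM in the control fetuses and at 4.36, 1.70, 2.95, 3.74 and 1.17 CPM in dysmorphic fetuses 1 to 5, all of them above the controls (2.83 ± 0.79 SE, edgeR adjusted p = 0.1). Ifit3, an RNA-binding antiviral effector, was at 6.02, 3.10 and 6.02 CPM in control and at 2.47, 1.51, 1.08, 2.03 and 1.42 CPM in dysmorphic kidneys, all below the controls (-1.59 ± 0.34 SE, edgeR adjusted p = 0.0505). Nlrc5 was at 1.12, 1.96 and 2.90 CPM in control and at 7.21, 3.75, 3.36, 3.86 and 3.43 CPM in dysmorphic kidneys, also with no overlap (1.08 ± 0.40 SE, edgeR adjusted p = 0.184). H2-DMa (-0.66) and Rsad2 (-1.45) were also below the controls without overlap. Groups thus did not overlap for 5 members, 2 above and 3 below, against 14.7% of all genes, and none passed the test.

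The class I chains varied within the fetal groups. H2-K1 was at 16.5, 91.1 and 211 CPM in control fetuses 1, 2 and 3 and at 22.4, 26.9, 24.4, 25.6 and 131 CPM in dysmorphic fetuses 1 to 5 (-1.24 ± 0.86 SE). The fetuses with the highest H2-K1, control fetus 3 and dysmorphic fetus 5, stood apart in different markers. Their sample titles share a prefix with dysmorphic fetus 4, whose H2-K1 was at 25.6 CPM. Control fetus 3 had distal nephron markers at 2.37 CPM, against 691 and 209 CPM in fetuses 1 and 2. Its nephron progenitor markers were at 7.19, against 140 and 87.9 CPM. Its proximal tubule markers, at 1289 CPM, lay between those of fetuses 1 and 2. Dysmorphic fetus 5 had proximal tubule markers at 806 CPM, against 21.9–132 CPM in the other dysmorphic fetuses. Its distal nephron markers, at 1.85 CPM, were near the 1.89 CPM of dysmorphic fetus 4. B2m varied much less, at 93.9, 185 and 165 CPM in control and 138–165 CPM in dysmorphic kidneys. Macrophage markers summed to 255–515 CPM in dysmorphic against 143–179 in control fetal kidneys, with 2 of 7 called higher, and T cell markers to 0.467–1.51 against 0.476–1.04 CPM. The part of these cells, of the tubule content and of the skeletal muscle RNA named above was not tested.

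Control fetal kidneys were compared with control adult kidneys to place the fetal levels. Fetal and adult controls differ in age, in the Cre driver and in the count table that held them, and these cannot be told apart. In this comparison 23 members were called lower in the fetal kidneys and none higher, while 49% of the 22859 genes tested were called and 23.9% called lower. The members' median log2 fold change was -1.45, against 0.03, and groups did not overlap for 26 members, all below, against 60.8% of all genes.

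All 6 class II genes and both transactivators were lower in fetal kidneys. H2-Eb1 was at 28.8, 85.1 and 83.5 CPM in adult controls and at 1.84, 2.07 and 4.17 CPM in control fetuses, 24.0-fold lower (-4.58 ± 0.57 SE). The other class II chains H2-Aa (-3.95) and H2-Ab1 (-4.13), Cd74 (-4.29), H2-DMb1 (-3.55) and H2-DMa (-2.12) were lower as well. Ciita, on which class II transcription depends, was at 5.00, 10.6 and 12.6 CPM in adults and 0.427, 0.685 and 1.08 CPM in fetuses (-3.66 ± 0.51 SE), and Nlrc5 was at -3.90 ± 0.51. In the class I pathway, H2-D1 fell by 1.91 and B2m by 1.15 on the log2 scale, and Tap1 (-1.45), Tap2 (-2.63), Tapbp (-1.36) and Psmb8 (-2.22) were called. H2-D1 was called in 7 and Tap1 in 6 of the 11 alternative fits, and B2m, Tap2, Tapbp and Psmb8 in all of them. H2-K1 (-1.26 ± 0.79, edgeR adjusted p = 0.227), Psmb9 (-1.23, 0.0799) and Psmb10 (0.29) were not. Dendritic cell markers summed to 7.34–9.48 CPM in fetal and 16.4–33.2 in adult control kidneys and T cell markers to 0.476–1.04 against 7.81–9.41 CPM, while macrophage markers were at 143–179 against 150–175 CPM. Xcr1, a marker of cross-presenting dendritic cells, was at 0 in the control fetal kidneys. Proximal tubule markers summed to 1126–1355 CPM in fetal and 10418–10858 in adult control kidneys, and distal nephron markers to 2.37–691 against 4662–5721 CPM. Skeletal muscle markers were at 486–696 against 0.460–2.69 CPM. The part of these cells was not tested.

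None of the 4 signalling transcription factors Stat2, Irf1, Irf7 and Irf9 was called, between control fetal and adult kidneys, with a median of -0.20, and neither was a sensor, although Ifih1 (MDA5, -0.88) and Ddx58 (RIG-I, -0.56) were both below the adult kidneys without overlap. Of the 12 effectors, 7 were called lower in fetal kidneys, namely Gbp3 (-3.96), Ifit3 (-2.80), Gbp2 (-2.27), Rsad2 (-1.77), Ifi44 (-1.60), Usp18 (-1.36) and Ifit2 (-0.60). Of these, Gbp3, Ifit3, Gbp2 and Rsad2 were called in all 11 alternative fits, Usp18 in 7, Ifi44 in 6 and Ifit2 in 4. Both chemokines were lower. Cxcl10 was at 2.63, 3.33 and 6.12 CPM in adults and at 0.197, 0.320 and 0.360 CPM in fetuses (-3.76, edgeR adjusted p = 0.00101), and Cxcl9 differed by -3.75 (0.0119).

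The difference between the fusion's effect in the adult model (kidney tumors minus control kidneys) and in the fetal model (dysmorphic minus control fetal kidneys) was tested in 1 fit. It uses the same samples as those 2 comparisons, and it also holds the differences in age, Cre driver, count table and tissue state. The difference was called higher in the adult model for 4 members and lower for 1, against 8.94% of the 24444 genes tested. The members' median was 0.70, against 0.16. The 4 were H2-D1 (2.88 ± 0.69 SE, edgeR adjusted p = 0.0186), B2m (1.18 ± 0.31, 0.0311), Bst2 (2.18 ± 0.41, 0.00392) and Ifit3 (1.43 ± 0.38, 0.0313). H2-D1, B2m and Bst2 were those that rose in kidney tumors, and in dysmorphic kidneys none of the 4 was called. Cxcl9 was lower in the adult model (-3.35 ± 0.93, edgeR adjusted p = 0.0372). Only Bst2 was called under every alternative run, and the count was 1 without control mouse 2, control mouse 3 or control fetus 3, and 3 without control mouse 1, mouse 3, mouse 6 or dysmorphic fetus 3, and 2 without dysmorphic fetus 4.

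The signalling transcription factors and the RNA sensors were called in none of the 9 comparisons with all animals. Irf1, Irf7, Ifih1 and Ddx58 had the calls given above without mouse 4. Those calls are no independent test, because the brain tumor of mouse 4 was the highest of its group for most members. Stat2, which with Irf9 carries the type I signal to the nucleus, was at 22.2–39.9 CPM in control kidneys, 25.4–57.4 in kidney tumors and 42.6–59.0 in retro-orbital tumors. Irf9 followed at 15.6–24.9, 15.1–31.1 and 18.8–29.7 CPM. Irf1, a factor that interferon gamma induces and that acts on class I and Nlrc5 promoters, was at 14.3–25.2 CPM in control kidneys, 7.81–22.2 in kidney tumors and 14.7–20.2 in retro-orbital tumors, with each range overlapping the others. Irf7, the amplifier of type I interferon transcription, was at 4.68–7.42, 4.27–8.22 and 3.74–7.69 CPM in the same groups. Of the cytoplasmic RNA sensors, Ifih1 was at 43.2–50.2 CPM in control kidneys, 25.8–56.4 in kidney tumors and 25.5–35.1 in retro-orbital tumors, and Ddx58 at 50.2–54.4, 38.5–75.9 and 45.6–48.2 CPM. The medians of the 4 factors lay between -0.89, in dysmorphic against control fetal kidneys, and 0.52, in kidney tumors against non-transformed kidneys, among the 8 comparisons of 1 group with another.

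Ifit1, Ifit2, Oasl2 and Gbp2 had no call among the adult groups with all animals, and their levels overlapped between control kidneys and kidney tumors. Ifit1, which binds RNA that lacks the host cap modification, was at 10.3–22.2 CPM in control kidneys, 6.06–16.2 in kidney tumors and 9.96–15.8 in retro-orbital tumors. Its relative Ifit2 was at 18.4–29.3, 22.3–42.9 and 25.3–33.3 CPM. Reads may be shared among the Ifit genes, and likewise between Gbp2 and Gbp3. Oasl2, an oligoadenylate synthetase-like protein, was at 7.49–12.8, 9.14–19.3 and 15.0–22.2 CPM, and the GTPase Gbp2 at 18.9–48.6, 15.2–50.8 and 20.1–56.2 CPM. In control fetal kidneys Ifit1 spanned 0.509–34.7 CPM among 3 fetuses, the widest spread of these 4 genes in that group. Unlike Gbp3, Gbp2 had no call in kidney tumors (-0.33, edgeR adjusted p = 0.614).

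The remaining class II and processing genes also overlapped between control kidneys and kidney tumors. H2-Ab1 had medians of 78.6 and 59.4 CPM, H2-DMa was at 6.88–12.4 and 4.39–19.5 CPM, and H2-DMb1, which shares sequence with H2-DMb2, at 10.9–29.0 and 16.8–36.7 CPM. Tap2 was at 10.7–18.5 CPM in control kidneys, 11.4–21.7 in kidney tumors and 14.7–35.6 in retro-orbital tumors, and Tapbp at 27.6–38.5, 27.1–43.7 and 33.3–40.9 CPM. The immunoproteasome subunit Psmb10 was at 7.01–9.40, 9.34–15.2 and 8.59–11.9 CPM. Tap2 and Tapbp were lowest in the fetal groups, at 1.61–3.17 and 8.56–12.9 CPM in dysmorphic kidneys, while Psmb10 was at 4.31–13.2 CPM in control fetal kidneys, a range that held the levels of the control kidneys.

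A further 83 genes of the same pathways, listed with earlier results known, were read beside the members. In kidney tumors against control kidneys 10 of the 81 tested were higher and 5 lower, and against non-transformed kidneys 10 were higher and 1 lower, where 19% and 17.1% of all genes were called. In retro-orbital tumors 3 of 80 were higher and 5 lower than in kidney tumors, where 17.7% of all genes were called, and in control fetal kidneys 5 were higher and 36 lower than in adults, where 49% were. None was called between non-transformed and control kidneys or between the fetal groups. Ifi30 encodes a lysosomal thiol reductase that opens antigens for class II, and it was higher in kidney tumors than in control kidneys by a log2 fold change of 4.62 ± 0.49 (edgeR adjusted p = 0.000582) and than in non-transformed kidneys by 3.71 ± 0.41 (0.000402). Lgals3bp, a secreted glycoprotein, was lower in tumors of the orbit than in those of the kidney (-2.53 ± 0.53, edgeR adjusted p = 0.0103). The interferon genes Ifng and Ifnb1 were at or below 0.0985 and 0.156 CPM and were not tested.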

How the data were processed

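RNA was measured in 36 libraries of 17 mice or fetuses. The authors deposited raw counts per gene in 2 tables, 1 for each Cre driver, and per the labels the libraries were made with a stranded total RNA kit without ribosomal depletion. The submitters' processing notes name STAR 2.5.2a, Bowtie2, FastQC, MultiQC and the builds GRCm38 and mm10, with no counter or annotation. The paper named for the series describes other mice and was not used. Of 53379 gene identifiers, 53274 matched GENCODE M21 with the version ignored, and symbols and gene lengths came from there. Between 79.04% and 84.33% of the counts from 1 to 20 in each library were even, so counts may hold both mates of a pair, and halved counts were tried as an alternative. Reads carried no molecular identifiers, so depth bears on counting error only.

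Libraries of the same animal and tissue were summed to 28 samples. Each comparison was fitted on its own groups in edgeR 4.0.16 (R 4.3.3) over all genes that passed filterByExpr, with TMM scaling, the quasi-likelihood F-test and Benjamini-Hochberg adjustment, and calls were made at 0.05. The SE was taken as the size of the fold change (log2) over the root of F. DESeq2 1.42.0 served as an alternative. The code was tested on simulated data. Same-numbered tissues came from the same mouse by their titles. The correlation of their deviations from the group means was 0.136, 0.159, -0.0405 and 0.083 for kidney tumor and non-transformed kidney (mice 1, 3, 4 and 5), 0.246, 0.238, 0.253 and 0.325 for retro-orbital and kidney tumor (mice 2, 3, 5 and 6), and -0.0665, -0.0595 and -0.0609 for brain and kidney tumor (mice 1, 2 and 4). Mouse blocks were fitted as alternatives.

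All 37 members could be named. Of the other pathway genes and markers, up to 3 called genes per comparison with the largest fold changes, Ifng, Ifnb1, Ptprc and the 3 standard proteasome subunits could be named. A gene that the rule allowed is not reported here. The members and lists were chosen with earlier results of these data known. Alternatives with female mice only, and without the kidney tumors of mice 4 and 5, which had the highest distal nephron marker sums, were added after the data were seen. Promoter windows came from RefSeq (GRCm38.p6).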

Additional observations from a re-analysis of the deposited data

Results flagged for a closer look

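The levels of the 37 genes were examined in the 4 groups of 4 to 6 animals, 148 sets of a gene and a group, for an animal whose gap to its nearest neighbour was large against the range of its group by Dixon's criterion. For normally distributed levels chance gives about 1 in 20, or 7.4 of 148, and 22 were found in 19 genes. The levels were taken as CPM and not on a log scale, and they need not be normal. The 7.4 is therefore no measured chance rate for these data. Genes of 1 animal are not independent of each other. Dysmorphic fetus 5 was the outlying animal for 6, with H2-K1 at 131, Psmb10 at 9.54, H2-Aa at 4.17, H2-Ab1 at 4.39, Irf1 at 15.8 and Ifit1 at 13.2 CPM. The non-transformed kidney of mouse 4 stood out for 5, with Nlrc5 at 36.4, H2-Eb1 at 118, Irf1 at 18.4, Ifit1 at 12.7 and Cxcl10 at 3.76 CPM. The kidney tumor of mouse 1 stood out for 4, with Tap1 at 18.5, Ciita at 16.3, H2-DMb1 at 36.7 and Ifit2 at 42.9 CPM. Dysmorphic fetus 1 stood out for Nlrc5 at 7.21, Isg15 at 1.66, Gbp2 at 11.4 and Gbp3 at 8.14 CPM. Single cases were Psmb8 in the retro-orbital tumor of mouse 5 at 18.8 CPM, the lowest of its group, Irf7 in that of mouse 2 at 7.69 CPM and Bst2 in the kidney tumor of mouse 6 at 33.9 CPM. All but Psmb8 were the highest of their groups.

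For 5 genes kidney tumors differed from control kidneys by another amount than dysmorphic from control fetal kidneys, by the test of the difference itself. Of all genes tested 8.94% were called. Age, Cre driver, count table and tissue state differ between the models as well and cannot be told apart from the fusion. Adult minus fetal log2 fold changes were 2.88 for H2-D1, 1.18 for B2m, 1.43 for Ifit3, 2.18 for Bst2 and -3.35 for Cxcl9. Of 22 alternative fits, the call held in 19 for H2-D1, 14 for B2m, 11 for Ifit3, 22 for Bst2 and 14 for Cxcl9. In Ifit3 the adult comparison alone was not called, nor was the fetal one, and the same held for Cxcl9.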

How the results depend on the processing

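Of 651 refits of single called genes, 537 kept the call, 114 lost it in the same direction and 0 reversed. Of the 48 calls 23 held under every alternative run, most of them between control fetal and control adult kidneys. Outside that comparison, Bst2 held against both adult kidney groups and in the difference between the models. B2m held against control kidneys and H2-D1 against non-transformed kidneys. No call between retro-orbital and kidney tumors held under every alternative. Of 128 refitted counts of called genes, 97 were within 1.5 times the reported count. With all 7 groups in 1 fit the counts were 4 for kidney tumors against control kidneys, 3 for retro-orbital and 4 for brain against kidney tumors, 3 for brain against retro-orbital tumors and 3 for the difference between the models. DESeq2 gave 1 for brain against kidney tumors, 2 for brain against retro-orbital tumors, 2 for the fetal groups and 8 for the difference between the models. Halved counts gave 1 for brain against kidney tumors and 1 for the fetal groups. With the mouse as a replicate block the count was 3 for kidney tumors against non-transformed kidneys, 4 for retro-orbital and 0 for brain against kidney tumors, and the block changed no call beyond those given above. A block on the title prefix and a term for sex each gave 0 for the fetal groups. Female mice only gave 3 for kidney tumors against non-transformed kidneys. Leaving out 1 animal gave 3–8 for kidney tumors against control kidneys, 3–9 against non-transformed kidneys, 0–0 between the kidney groups, 0–8 for retro-orbital and 0–12 for brain against kidney tumors, 0–14 for brain against retro-orbital tumors, 0–1 for the fetal groups, with 1 without dysmorphic fetus 2, 18–25 for fetal against adult controls and 1–7 for the difference between the models. The cause of these changes was not tested. Between settings the median of all genes shifted by at most 0.149 on the log2 scale. Ifng and Ifnb1 did not pass the filter on low counts and were not tested.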

Other observations

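Kidney tumors of 5 mice were sampled by 2 libraries each, and these showed how much the genes varied within a mouse. The median ratio of the higher to the lower library was 1.84 for H2-K1, 1.63 for H2-D1, 1.24 for B2m, 2.63 for Nlrc5 and 2.10 for Usp18. In mouse 6, Usp18 was at 6.01 CPM in 1 library and 78.3 CPM in the other, a 13.0-fold difference within the animal. In mouse 3, H2-K1 was at 1769 and 523 CPM and H2-D1 at 3656 and 1383 CPM, while the largest ratio of B2m in any mouse was 1.41. These values compare libraries, with no replicate of each piece of tumor.

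The ratio of the class I heavy chains was read in each group. Per kilobase, H2-K1 relative to H2-D1 was 0.405–0.836 in control kidneys, 0.721–0.818 in non-transformed kidneys, 0.262–0.572 in kidney tumors, 0.133–0.438 in brain tumors, 0.597–1.31 in control fetal kidneys and 0.391–1.25 in dysmorphic fetal kidneys. In retro-orbital tumors it began at 0.250, had a median of 0.369 and reached into the range of the control kidneys. All 6 kidney tumors lay below the 4 non-transformed kidneys, and they overlapped with the control kidneys. The ratio was read after the levels were seen and was not tested. How reads were split between these genes is uncertain, as said above, and this bears on the ratio.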
